A study of Mus musculus with 15 samples.

Results

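The effect of losing Prdm16 in adipocytes was examined in the fat around the abdominal aorta of mice (abdominal perivascular adipose tissue, aPVAT). The comparison took 7 of the 15 libraries of the series, chosen by their labels: 4 controls (numbers 1 to 4) with the genotype Prdm16flox, and 3 knockouts (numbers 1, 3 and 4) with the genotype Prdm16flox, AdipoQCre+, written cKO here. Both groups were 11 weeks old and carried the floxed allele, so the labelled difference is the Cre recombinase, whose name points to the promoter of the adipocyte gene Adipoq. Cells of the tissue that do not use this promoter keep Prdm16. The other 8 libraries, 4 control and 4 cKO of thoracic perivascular fat (tPVAT), served to estimate the spread and to compare the depots. A number 2 of the aPVAT knockouts was not analysed here. Nothing in the labels states that each sample came from its own animal, so p-values measure only the spread between these samples, which may be technical.

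PRDM16 is a zinc-finger coregulator that binds PPARs, C/EBP proteins, EBF2 and the PGC-1 coactivators, and it is known for holding brown and beige adipocytes in their thermogenic state while restraining genes selective for white and muscle cells. Thermogenic adipocytes burn fatty acids in dense mitochondria and release the energy as heat through the uncoupling protein UCP1. Perivascular fat releases lipids, heat and vasoactive peptides next to the vessel wall. The abdominal depot is the whiter of the aortic depots, with scattered beige-type adipocytes among white ones.

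The libraries held 37.76 M to 68.68 M counts, with the lowest total in cKO 4. Levels are counts per M counts of the library, scaled by the TMM method (CPM), and a gene was called when its adjusted p from edgeR's quasi-likelihood test was under 0.05. Genes of the mitochondrial genome took 13.03% to 15.99% of the counts in controls and 13.26% to 13.86% in cKO. Structural RNA took 1.011% in control 2 and 2.547% in cKO 4, against 0.1146% to 0.2408% in the other 5. On the principal components of the 7 libraries, control 1 stood alone at one end of the first (29.04% of the variance), cKO 4 of the second (24.38%) and control 2 of the third (14.79%). The tissue label held up against adipocyte markers: Adipoq (adiponectin) lay between 1366 and 1837 CPM, Plin1 (the lipid droplet coat perilipin) between 775 and 949 CPM, and Fabp4 between 5482 and 7519 CPM. Markers of nearby organs were low. Only 4 of 8 adrenal cortex markers, 3 of 9 of the kidney and 1 of 10 of the pancreas had enough counts to be tested. None of these was called, and the untested ones could not be called. The tested adrenal cortex markers summed to 6.177 to 6.884 CPM across controls and to 8.026 to 10.91 CPM across cKO libraries, without overlap. Mc2r, the corticotropin receptor, was the only tested member whose groups did not overlap (0.67, adjusted p = 0.265). Tested kidney markers summed to 1.883 to 6.457 CPM over the 7 libraries, and the tested pancreas marker read 2.147 to 3.163 CPM. All 10 liver markers were tested and summed to 7.648 to 12.32 CPM, with Serpina1a called higher. Cyp11b2 of the adrenal cortex, Umod of the kidney and Clps of the pancreas stood at 0 in all 7.

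Prdm16 itself (ENSMUSG00000039410, minus strand of chromosome 4, 154316125 to 154636873 on GRCm38, the mm10 assembly) read 26.8, 21.4, 23.3 and 23.4 CPM in controls 1 to 4 and 15.1, 14.7 and 18.3 CPM in cKO 1, 3 and 4. Every cKO library lay below every control library. The level fell from 23.7 ± 2.22 to 16.1 ± 1.99 CPM (SD, n = 4 and 3), and edgeR gave log2 fold change −0.57 with SE 0.105 and adjusted p = 0.00992. The call was lost without cKO 1 (adjusted p = 0.0692) and without cKO 3 (adjusted p = 0.0591). It was also lost when the 7 aPVAT libraries were fitted alone (adjusted p = 0.0739). Reads from outside the floxed part and from cells without Cre are in this count. Reads of B230104I21Rik, which overlaps Prdm16 on the opposite strand, may be in it too. The shares of these reads were not tested.

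Of 19645 genes tested, 301 were called (1.53%): 146 rose (0.743%) and 155 fell (0.789%). At least 2-fold changes were seen for 30 of the risen and 49 of the fallen genes. The median log2 fold change of all genes was −0.01, with 52.0% of genes below 0, and 2438 genes had an unadjusted p under 0.05. When the 7 aPVAT libraries were fitted alone, 92 genes were called, and DESeq2 called 604. In bulk tissue such as this, fewer cells of a type and less RNA per cell cannot be told apart.

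The steepest falls among the named genes were in the thermogenic list. Ucp1, the heat-releasing uncoupling protein (ENSMUSG00000031710, chromosome 8, 83290352 to 83298452), read 724, 363, 731 and 365 CPM in the 4 controls and 5.56, 47.8 and 3.15 CPM in cKO 1, 3 and 4. The controls formed a high pair (1 and 3) and a low pair (2 and 4), and cKO 3 stood well above the other cKO libraries, yet its level was far under the lowest control. The log2 fold change was −4.84 (SE 0.724, adjusted p = 0.00169), and the call was lost when the 7 aPVAT libraries were fitted alone (adjusted p = 0.0979). DESeq2 gave no adjusted p for Ucp1, so that alternative does not bear on its call. The size of the fall rested on cKO 3: it was −6.95 without that library, −5.63 with voom and −4.19 without control 1 and cKO 4. Per kilobase of exon, the scale on which genes can be compared, Ucp1 went from 334 to 11.5 CPM per kb, which took it from above Cidea (188 to 56.3 CPM per kb) to below it.

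Cidea, a lipid droplet protein of brown and beige fat, read 252, 175, 228 and 182 CPM in controls against 76.8, 58.7 and 52.8 CPM in cKO (log2 fold change −1.74, SE 0.136, adjusted p = 6.42e-06). Otop1, a proton channel of the plasma membrane, read 46.1, 29.9, 50.4 and 33 CPM against 10.7, 9.52 and 10.6 CPM (−1.96, SE 0.151). For both genes the cKO values were clear of the controls. Cpn2, the regulatory subunit of carboxypeptidase N, which trims kinins and complement peptides, had the smallest p of all genes: 9.91, 4.42, 7.09 and 5.18 CPM in controls and 0.249, 0.345 and 0.214 CPM in cKO (−4.58, SE 0.317, adjusted p = 4.05e-06). Kng2, a kininogen, fell from 3.41 ± 1.3 to 0.694 ± 0.452 CPM (−2.19, adjusted p = 0.00536). The Kng2 call was lost with the 7 aPVAT libraries alone (adjusted p = 0.129) and with voom (adjusted p = 0.086). RNA of a substrate of the kinin system and of a subunit of an enzyme that acts on kinins was thus lower. Cpn1, the gene of the other subunit of that enzyme, was too low to be tested.

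Of the 42 tested members of the thermogenic list, 21 fell and none rose, and the median log2 fold change was −0.73, against −0.01 for all genes. The 21 members not called spanned log2 fold changes from −1.05 to 2.18. In 28 members all cKO libraries lay below all controls, a pattern shown by 5.8% of all genes. The summed level of the list was 1814 to 2513 CPM across controls, against 959.6 to 963.4 CPM across cKO libraries. The other called members included the mitochondrial protein gene Letmd1 (−1.07), the neurotrophin receptor Ntrk3 (−0.80), the potassium channel Kcnk3 (−0.65), the coenzyme A synthesis enzyme Pank1 (−0.87) and Pm20d1 (−0.68), whose secreted enzyme joins fatty acids to amino acids. The call of Pm20d1 was lost without cKO 1 and without cKO 3 (adjusted p = 0.0545 each).

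Not every gene of the thermogenic state was called lower, though some of these had estimates below 0. Dio2, which activates thyroid hormone, read 11.0, 25.9, 26.7 and 18.1 CPM in controls and 9.21, 13.0 and 7.30 CPM in cKO (−1.05, adjusted p = 0.1), and its groups overlapped through control 1. Elovl3, a fatty acid elongase of brown fat, read 13.4, 6.84, 7.79 and 7.12 CPM against 5.97, 6.50 and 2.53 CPM (−0.79, adjusted p = 0.196), which did not overlap but missed the threshold. Ebf2 (−0.20, adjusted p = 0.404), a transcription factor that marks brown and beige lineages, and the beta-3 adrenergic receptor Adrb3 (0.16, adjusted p = 0.718) were not called either. Fgf21, a hormone that brown fat can release, stood at 0.0467 ± 0.0232 CPM in controls and 0.211 ± 0.17 CPM in cKO, a level of few reads (adjusted p = 0.108). Zic1, a marker of classical brown fat, was too low to be tested.

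**Figure D1:**
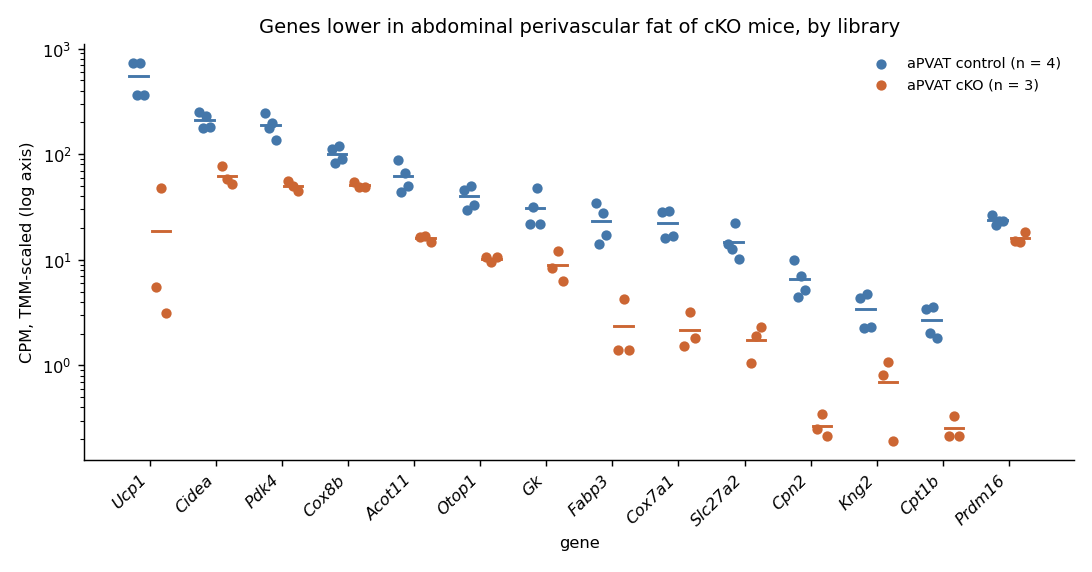
CPM of 14 genes called lower in aPVAT cKO, on a log axis. Each point is a library, blue for the 4 controls and orange for the 3 cKO libraries, and each bar is the mean of its group. Ucp1 and Cpn2 show wide gaps, from a lowest control of 363 CPM to a highest cKO library of 47.8 CPM and from 4.42 to 0.345 CPM, whereas Prdm16 itself shows a narrow one, from 21.4 to 18.3 CPM.

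Because PPARs with their partner RXR are among the factors that PRDM16 works with, the promoters of the named falls were searched for the core of their direct repeat, GGNCANAGG, on both strands. The windows were those of RefSeq (GRCm38.p6), 250 bases before to 50 after the annotated start. Of the 55 named genes that fell, 43 had a window and 9 of them held the core. These are the sites of 4 of these genes, shown as examples of the letters behind the count, each 5′ to 3′ on the strand of the core, with the core in capitals and flanks of up to 10 bases:
Slc27a2 (chr2:126552790-126552818, minus strand): acgttgaaaaGGTCAAAGGcgtggtgctg
Pdk4, first core (chr6:5496495-5496523, plus strand): ggcctgcaagGGGCAAAGGgtgagaggga
Pdk4, second core (chr6:5496429-5496457, minus strand): tagtgaccgcGGCCAAAGGgaggagccca
Cox8b (chr7:140900397-140900423, minus strand): ctacctaagtGGTCAGAGGacgtgcag
Adcy3 (chr12:4134156-4134184, minus strand): tgggttcccaGGACACAGGtggcaccgaa

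The Slc27a2 core begins 224 bases before the RefSeq start, within the first exon of the longer GENCODE M21 model, the Pdk4 cores 235 and 169 bases before it, the Cox8b core 34 bases after it and the Adcy3 core 14 bases after it. Pdk4 (ENSMUSG00000019577, chromosome 6, 5483351 to 5496309, minus strand), the kinase that shuts off pyruvate dehydrogenase when fat is burned, held 2 cores in opposite directions within the 150 bases printed here, which read toward the gene (chr6:5496379-5496528, minus strand), with the first core as its reverse complement:
Pdk4 upstream: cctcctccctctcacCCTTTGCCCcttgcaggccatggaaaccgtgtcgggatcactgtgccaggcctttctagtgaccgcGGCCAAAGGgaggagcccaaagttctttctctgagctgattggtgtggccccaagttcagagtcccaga

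Among genes with a window the core was present in 10.5% of the 12886 tested, in 19.6% of the 107 called lower (21 genes), in 12.7% of the 102 called higher (13 genes) and in 3 of the 15 called thermogenic genes. The ERR element TCAAGGTCA was in 0.357% of the tested, 0.935% of the lower (1 gene) and 0.98% of the higher genes (1 gene). The EBF core CCCNNGGGA was in 9.65%, 11.2% and 6.86% of the tested, lower and higher genes. These shares are descriptions without a test. A match is a run of letters, and binding was not measured here.

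Of 25 genes that burn fatty acids in mitochondria, 8 fell and 17 were not called. Cpt1b, the muscle and brown fat form of the enzyme that admits fatty acids to the mitochondrion (ENSMUSG00000078937, chromosome 15, 89416405 to 89425863), read 3.45, 2.03, 3.59 and 1.8 CPM in controls and 0.215, 0.334 and 0.214 CPM in cKO (−3.38, SE 0.291, adjusted p = 9.5e-06). Acaa2, the thiolase of the last step, read 254, 157, 244 and 170 CPM against 91.8, 84.4 and 103 CPM (−1.15, adjusted p = 0.000634). Neither gene's groups overlapped, and both calls held when any 1 aPVAT library was left out.

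In between these steps, Acadvl, the dehydrogenase for very long chains, fell by 0.79 on the log2 scale and Acadm, that for medium chains, by 0.45. The trifunctional protein subunits Hadha and Hadhb fell by 0.46 and 0.59, Etfdh, which passes electrons to the respiratory chain, by 0.52, and the isomerase Ech1 by 0.44. None of the 25 members rose, 24 had a log2 fold change below 0, and the median was −0.34. The count of fallen members ranged from 3 (without cKO 3) to 12 on leaving out 1 library, with 5 without control 1, 5 without control 3 and 4 without cKO 1, and was 2 with the 7 aPVAT libraries alone. The 5 calls of Hadha, Hadhb, Etfdh, Acadm and Ech1 were each lost without at least one of controls 1, 3 and 4 and cKO 1, 3 and 4, with adjusted p up to 0.153, 0.0591, 0.0728, 0.116 and 0.175 in this order.

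The TCA cycle takes up the acetyl units so made, and 9 of the 25 genes of pyruvate entry and the cycle fell, 1 rose and 15 were not called. Sucla2, a subunit of succinyl-CoA ligase, read 244, 211, 262 and 209 CPM in controls and 142, 132 and 139 CPM in cKO (−0.75, SE 0.102, adjusted p = 0.000772). Controls 1 and 3 were the higher controls, as for Ucp1, and the cKO libraries lay below all 4. Pdk4 had the largest change of the list, from 244, 177, 196 and 136 CPM to 55.3, 49.7 and 44.8 CPM (−1.91, SE 0.182, adjusted p = 2.62e-05).

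Suclg1 (−0.77), Ogdh (−0.64), Dlst (−0.53) and the 3 subunits of NAD-dependent isocitrate dehydrogenase, Idh3a (−0.50), Idh3b (−0.54) and Idh3g (−0.43), were among the other members that fell. Pcx, pyruvate carboxylase, which makes oxaloacetate for the cycle and for fatty acid synthesis, moved the other way, from 1271 ± 63.3 to 1707 ± 133 CPM (0.43, adjusted p = 0.0277). Leaving out 1 library left 5 (without cKO 1 or cKO 3) to 11 members called lower. The calls of Ogdh (adjusted p = 0.0502 without cKO 1), Idh3a (0.0672 without cKO 3), Idh3b, Dlst, Idh3g and Pcx were lost without one or more of controls 1, 3 and 4 and cKO 1, 3 and 4, the last 4 with adjusted p up to 0.0789, 0.0949, 0.139 and 0.153.

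Nuclear genes of the respiratory chain shifted down by small amounts. Of 77 members 74 had a log2 fold change below 0, with a median of −0.27. In 40 all cKO libraries lay below all controls, a pattern shown by 5.8% of all genes. Only 6 were called lower: Cox7b (−0.41), Ndufb5 (−0.36), Sdhd (−0.41), Sdhb (−0.47), Uqcrc1 (−0.54) and Cox5a (−0.41), which belong to complexes I to IV. Atp5g3, a subunit of the ring of ATP synthase, was called higher, at 197, 172, 196 and 194 CPM in controls and 258, 213 and 240 CPM in cKO (0.32, adjusted p = 0.0366). Each of these 7 calls was lost when 1 of several libraries (controls 1, 2, 3 or 4, cKO 1, 3 or 4) was left out, with adjusted p up to 0.207. The 13 protein genes of the mitochondrial genome had a median of −0.07 and none was called: mt-Co1 stood at 32760 ± 1704 CPM in controls and 29725 ± 1892 CPM in cKO (−0.14, adjusted p = 0.579).

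In several pairs of related genes the form typical of muscle or brown fat was called lower while the general form was not called. Cox7a1, the muscle and brown fat form of a cytochrome oxidase subunit (ENSMUSG00000074218, chromosome 7, 30184144 to 30186078), read 28.4, 16.1, 29 and 16.7 CPM in controls and 1.54, 3.19 and 1.82 CPM in cKO (−3.35, SE 0.289, adjusted p = 9.5e-06). Its general counterpart Cox7a2 stood at 101 ± 10.1 and 85.8 ± 5.15 CPM (−0.23, adjusted p = 0.26). Per kilobase, Cox7a1 held 42.1 against 106 CPM per kb for Cox7a2 in controls, and 4.08 against 90.9 CPM per kb in cKO. Cox8b fell by 1.0 on the log2 scale, from 101 ± 17.4 to 50.7 ± 3.13 CPM, while Cox8a read −0.13 (adjusted p = 0.603). The pairs Cpt1b and Cpt1a (−3.38 and −0.04), Cidea and Cidec (−1.74 and 0.10), Ppargc1b and Ppargc1a (−1.0 and −0.06) and Esrrg and Esrra (−0.86 and −0.14) likewise had the first gene called and the second not, although Ppargc1a is itself a gene of brown fat and muscle. The difference within a pair was not tested. Cox4i2 and Cox6a2 were not called, and Cox6a2 was near 0 (0.0116 to 0.235 CPM).

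**Figure D2:**
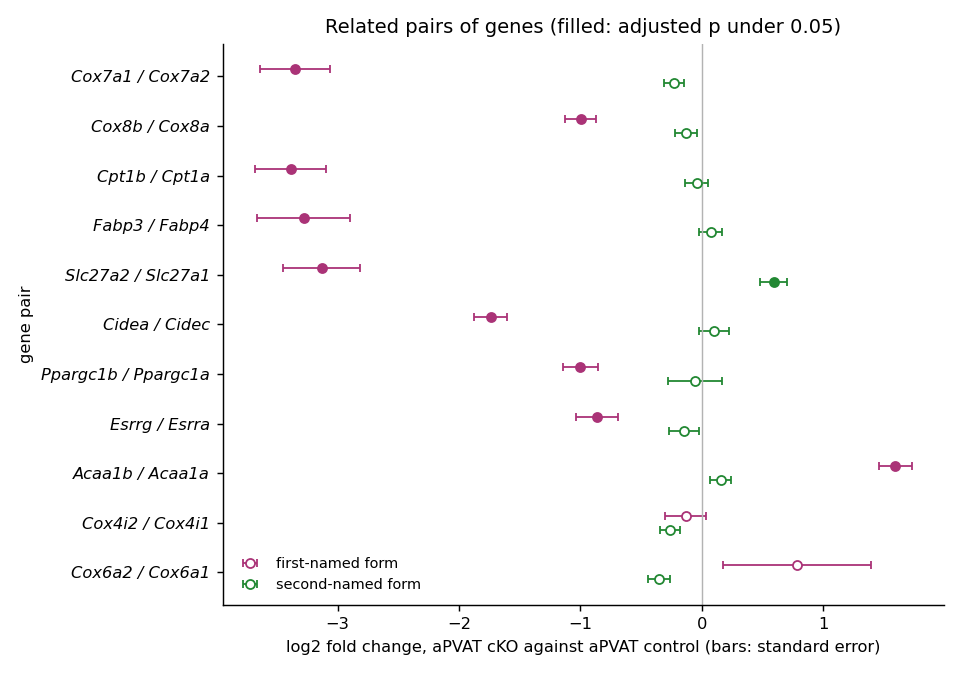
Log2 fold change in aPVAT cKO against control for 11 related pairs of genes, with standard errors as bars. The first-named form of a pair is purple and the second green, and filled points passed the threshold. In 8 pairs the first form was called lower and in the pair Acaa1b and Acaa1a it was called higher, at 1.59 against 0.15. Both forms were called in Slc27a2 and Slc27a1 alone, in opposite directions.

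Genes for taking up, binding and activating fatty acids split into risers and fallers. Fabp3, the heart-type fatty acid binding protein, read 34.3, 14.3, 27.8 and 17.2 CPM in controls and 1.41, 4.26 and 1.39 CPM in cKO (−3.28, SE 0.381, adjusted p = 0.000168). Without cKO 3 its log2 fold change was −4.06. Reads of Fabp3 and its pseudogene Fabp3-ps1 (−3.23, and −4.16 without cKO 3) may be shared, and Fabp3 overlaps Zcchc17 on the opposite strand, so its own level is uncertain. The adipocyte form Fabp4 was higher per kilobase in every group and read 0.07 (adjusted p = 0.792), with signs that differed between settings. Slc27a2, which activates very long chains (ENSMUSG00000027359, chromosome 2, 126552407 to 126588243), read 14.1, 12.6, 22.4 and 10.1 CPM against 1.04, 1.88 and 2.29 CPM (−3.13, SE 0.314, adjusted p = 4.02e-05). Slc27a1, of the same family, read 455, 466, 520 and 436 CPM against 650, 638 and 834 CPM (0.59, adjusted p = 0.0101). The groups did not overlap for either gene, and cKO 4 was the highest for Slc27a1, whose call was lost without it (adjusted p = 0.0606).

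Acot11, a thioesterase of thermogenic fat, read 87.7, 43.9, 66 and 49.7 CPM against 16.6, 16.8 and 14.7 CPM (−1.95, SE 0.185, adjusted p = 2.62e-05), and it overlaps Fam151a on the opposite strand. Acsl5, an acyl-CoA synthetase, fell from 86.6 ± 11.8 to 55.9 ± 1.06 CPM (−0.63, adjusted p = 0.00169). Fabp5 rose from 63.7 ± 10.6 to 101 ± 10.3 CPM (0.67, adjusted p = 0.00819), a call lost without cKO 1 (adjusted p = 0.0604). The other risers act on circulating lipoproteins: the lipase Lipg read 4.9, 4.2, 4.73 and 4.02 CPM in controls and 18.6, 11.6 and 11.3 CPM in cKO (1.63, SE 0.187, adjusted p = 0.000155), and Angptl8, an insulin-induced inhibitor of lipoprotein lipase, read 14.9, 12.1, 12.1 and 13 CPM against 61.4, 25.7 and 24.8 CPM (1.52, SE 0.266, adjusted p = 0.00675). In both, cKO 1 stood above the other cKO libraries. The 24 genes of this list thus had 4 higher and 4 lower members and a median of 0.02. Lpl itself (0.30, adjusted p = 0.47) and Cd36 (0.05, adjusted p = 0.864) were not called.

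Among 27 genes of lipolysis and the lipid droplet, 5 fell and 1 rose, with a median of −0.04. Gk, glycerol kinase, which lets an adipocyte reuse the glycerol set free by lipolysis, read 21.9, 31.6, 48.1 and 21.8 CPM in controls and 8.45, 12.1 and 6.29 CPM in cKO (−1.78, SE 0.292, adjusted p = 0.00416). Pck1, the other route to glycerol phosphate, read 1220, 1075, 1355 and 1097 CPM against 811, 586 and 768 CPM (−0.72, adjusted p = 0.0101). Plin5, a droplet coat that ties droplets to mitochondria, fell from 33.5 ± 5.55 to 20.3 ± 2.74 CPM (−0.73), and Adcy3, an adenylyl cyclase of the beta-adrenergic pathway, from 41.2 ± 8.35 to 24.1 ± 4.03 CPM (−0.77). The call of Pck1 was lost without cKO 3 (adjusted p = 0.0534), that of Plin5 without cKO 3 (0.0613), and that of Adcy3 without control 1, control 3, cKO 1 or cKO 4 (up to 0.139). Tlcd2 rose from 15.7 ± 1.05 to 39.1 ± 5.49 CPM (1.32, SE 0.105, adjusted p = 6.42e-06), and it overlaps Mir22hg on the same strand.

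The peroxisome, which also oxidises fatty acids, showed no shared direction: of 26 genes 2 rose and 1 fell, and the median was 0.03. Acaa1b, a peroxisomal thiolase (ENSMUSG00000010651, chromosome 9, 119148023 to 119157093), read 22.1, 21.4, 24.2 and 20.4 CPM in controls and 67.9, 54.3 and 77.4 CPM in cKO (1.59, SE 0.136, adjusted p = 9.5e-06), while its near copy Acaa1a read 0.15 (adjusted p = 0.493). Pex11a, which makes peroxisomes divide, rose from 58.2 ± 1.69 to 76 ± 8.78 CPM (0.38, adjusted p = 0.0115). Phyh, of branched-chain oxidation, fell from 166 ± 17.1 to 118 ± 14.5 CPM (−0.49, adjusted p = 0.0195). Without cKO 1 the calls of Pex11a (adjusted p = 0.0792) and Phyh (0.106) were lost, and that of Phyh also without cKO 3 (0.0934).

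Of 26 genes that build fatty acids and triglycerides, 10 rose and 16 were not called. Scd1, the desaturase that makes oleate (ENSMUSG00000037071, chromosome 19, 44394455 to 44407879), read 14318, 17235, 20826 and 15277 CPM in controls and 33768, 24610 and 25149 CPM in cKO (0.72, SE 0.134, adjusted p = 0.0101). Me1, the malic enzyme that supplies NADPH, read 682, 1121, 984 and 925 CPM against 2205, 1596 and 1371 CPM (0.89, SE 0.158, adjusted p = 0.00727). Acss2, which makes acetyl-CoA from acetate, read 287, 341, 306 and 333 CPM against 686, 517 and 461 CPM (0.81, SE 0.134, adjusted p = 0.00471). In each of these genes all cKO libraries lay above all controls, and cKO 1 was the highest.

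The other called members followed the same path. Citrate export had Slc25a1 (0.63), the carboxylation of acetyl-CoA Acaca (0.49), and NADPH supply G6pdx (0.45) and Pgd (0.56). Glycerolipid assembly had Gpat3 (0.65), Agpat2 (0.39) and Dgat1 (0.44), which read 163, 166, 195 and 162 CPM in controls and 220, 216 and 261 CPM in cKO. None of the 26 members had a log2 fold change below 0, the median was 0.41, and in 12 all cKO libraries lay above all controls, a pattern of 3.76% of all genes. The list's summed level was 35600 to 43690 CPM in controls and 68530, 52050 and 50950 CPM in cKO 1, 3 and 4.

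The rise was uneven among cKO libraries. Fasn, fatty acid synthase, read 8347, 9690.1, 9584 and 8199 CPM in controls and 13330.5, 11255.5 and 9686 CPM in cKO (0.35, adjusted p = 0.152), and Acly, which makes cytosolic acetyl-CoA, read 1419, 1667, 1263 and 1602 CPM against 3179, 2082 and 1535 CPM (0.61, adjusted p = 0.174). For both, cKO 4 fell within the controls. Without cKO 1 only 4 members of the list were called, with the calls of Scd1 (adjusted p = 0.0728), Slc25a1 (0.0812), G6pdx (0.0813), Pgd (0.134), Agpat2 (0.135) and Acaca (0.253) lost. Without cKO 4 those of Gpat3 (0.0766) and Agpat2 (0.0991) were lost, without control 4 those of Agpat2, Pgd and Acaca, without control 3 that of Pgd, and without control 1 or cKO 3 that of Acaca (up to 0.123). With the 7 aPVAT libraries alone no member was called, and DESeq2 called 14.

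**Figure D3:**
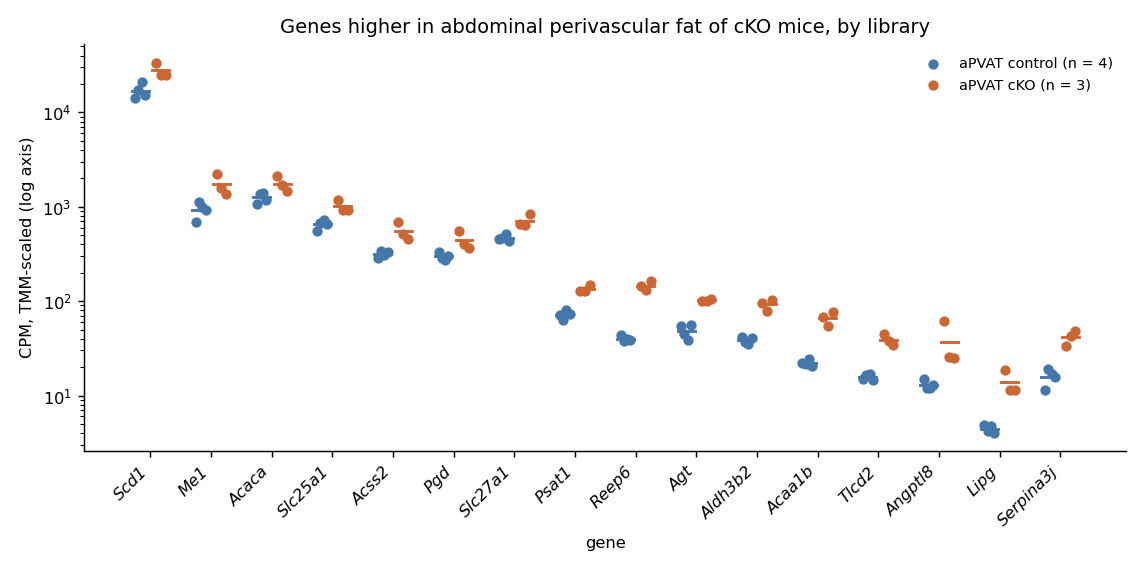
CPM of 16 genes called higher in aPVAT cKO, on a log axis, with a point for each library (blue, 4 controls; orange, 3 cKO) and a bar at each group mean. No orange point lies among the blue ones of its gene. Reep6 shows a clear step, from between 38.2 and 44.1 CPM in controls up to between 130 and 164 CPM in cKO, and Angptl8 shows 1 cKO library (61.4 CPM) well above the other two.

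Other rises lay outside these pathways. Reep6, which shapes the endoplasmic reticulum (ENSMUSG00000035504, chromosome 10, 80329953 to 80336441), read 44.1, 38.2, 39.8 and 38.5 CPM in controls and 143, 130 and 164 CPM in cKO (1.86, SE 0.163, adjusted p = 1.05e-05). The fatty aldehyde dehydrogenases Aldh3b2 and Aldh3b3 read 38.6 ± 3.36 and 1.9 ± 0.232 CPM in controls against 92.4 ± 11.8 and 4.75 ± 0.677 CPM in cKO (1.26 and 1.32). Ccnd2, a D-type cyclin, read 130, 144, 150 and 126 CPM against 244, 250 and 278 CPM (0.90, SE 0.0765, adjusted p = 9.5e-06). The cKO libraries of these genes stood clear of the controls, among which control 4 was low for Aldh3b3 (1.56 CPM). Slc16a12, a creatine transporter, rose from 7.24 ± 1.15 to 16.7 ± 1.44 CPM (1.21), and the adaptor gene Grb7 from 1.96 ± 0.518 to 4.42 ± 0.184 CPM (1.18). Serpina3j, a serine protease inhibitor of a cluster of near copies, rose from 15.8 ± 3.15 to 41.7 ± 7.63 CPM (1.40), and the small apolipoprotein genes Apoc2 and Apoc4, which share an overlapping transcript, rose from 0.966 to 2.72 CPM (1.49) and from 0.142 to 1.15 CPM (2.97).

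The largest rise among genes with a mean log2 CPM of at least 1, that of Ighg3, an immunoglobulin heavy chain of plasma cells, was uneven: 3.67, 0.822, 0.453 and 2.86 CPM in controls and 23.3, 9.33 and 15.4 CPM in cKO (3.03, SE 0.609, adjusted p = 0.0166). It was lost without cKO 1 (adjusted p = 0.107) and with DESeq2 (adjusted p = 0.139). Among the 15 largest falls were 4 major urinary protein genes, Mup17, Mup14, Mup1 and Mup18 (−2.05 to −2.38), which are near copies of each other and whose reads cannot be assigned with certainty. Mup17 read −2.99 without cKO 3. Each lost its call without several single libraries (controls 1, 2 and 4, cKO 1, 3 and 4, adjusted p up to 0.153). Myo5c, an unconventional myosin, read 5.49, 4.71, 5.16 and 4.25 CPM against 1.43, 0.858 and 1.22 CPM (−2.07, SE 0.205, adjusted p = 3.45e-05), with every cKO library far below the controls.

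Of 24 genes selective for white fat, 4 rose and 2 fell, and the median was 0.11. Agt, angiotensinogen, the precursor of angiotensin peptides (ENSMUSG00000031980, chromosome 8, 124556534 to 124569706), read 55.1, 44.9, 38.9 and 56.5 CPM in controls and 100, 100 and 107 CPM in cKO (1.07, SE 0.16, adjusted p = 0.00169). Psat1, of serine synthesis, read 72.2, 63, 80.5 and 73.1 CPM against 128, 128 and 147 CPM (0.90, SE 0.0962, adjusted p = 8.58e-05). The cKO values of both were nearly alike and well above the controls. The adipokine Retn rose from 492 ± 45.9 to 735 ± 58.5 CPM (0.58, adjusted p = 0.0236) and Hoxc8, a posterior Hox gene, from 39.3 ± 7.56 to 55.9 ± 2.57 CPM (0.51, adjusted p = 0.0486). The call of Retn was lost without control 3, cKO 1 or cKO 4 (adjusted p up to 0.108), and that of Hoxc8 without control 3, control 4 or any cKO library (up to 0.167).

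The 2 white-selective fallers were Dpt, the matrix protein dermatopontin, from 262 ± 47 to 161 ± 20.3 CPM (−0.70, adjusted p = 0.0123), and Nnat, which read 259, 48.8, 173 and 160 CPM in controls and 28.5, 30.9 and 71.2 CPM in cKO (−1.89, adjusted p = 0.0435). Nnat was the only called gene whose groups overlapped, through control 2 and cKO 4, its call was lost without control 1, 3 or 4 or cKO 1 or 3 (adjusted p up to 0.199), and it read −2.74 without the 2 libraries rich in structural RNA. The call of Dpt was lost without cKO 1 (adjusted p = 0.0864). Lep, leptin, was spread within both groups, with 233, 65.6, 168 and 116 CPM in controls and 113, 118 and 179 CPM in cKO (−0.09, adjusted p = 0.947).

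Vasoactive genes moved in both directions, with 3 of 45 higher, 3 lower and a median of −0.08. Beside Agt, the aminopeptidase Enpep, which converts angiotensin II, read 60.8, 84.7, 72 and 69.5 CPM in controls and 136, 128 and 110 CPM in cKO (0.80, SE 0.145, adjusted p = 0.00819). Ptges, which makes prostaglandin E2, read 34.9, 39.6, 36 and 39.7 CPM against 87.2, 65 and 55.5 CPM (0.88, SE 0.169, adjusted p = 0.0116), with cKO 1 highest. Groups did not overlap for either gene, but both calls were lost without cKO 1 (adjusted p = 0.0539 and 0.0864). The fallers were Cpn2, Kng2 and Pm20d1, given above. Adipoq stood at 1572 ± 150 CPM in controls and 1558 ± 247 CPM in cKO (−0.01, adjusted p = 0.973). In the list named for creatine and calcium cycling, Slc16a12 rose, Otop1 and Kcnk3 fell, and the remaining 13 of 16 genes were not called. Otop1 and Kcnk3, a proton and a potassium channel, are also counted in the thermogenic list. Alpl, the phosphatase of creatine cycling, overlapped between groups (−0.17, adjusted p = 0.3).

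The partners of PRDM16 mostly kept their levels within the spread. Of 39 genes of its family and its complexes, 4 fell (Prdm16 included), none rose, and the median was −0.09. Ppargc1b, a coactivator of mitochondrial genes, read 10.9, 10.1, 10.8 and 7.95 CPM in controls and 5.66, 4.34 and 4.9 CPM in cKO (−1.0, SE 0.147, adjusted p = 0.00148). Ppara, the nuclear receptor for fatty acids, read 19.1, 20.3, 28.7 and 19.9 CPM against 10.8, 12.7 and 13.8 CPM (−0.83, SE 0.126, adjusted p = 0.00215). Esrrg, an orphan receptor of oxidative tissues, fell from 3.64 ± 0.344 to 2.04 ± 0.495 CPM (−0.86, adjusted p = 0.0166), a call lost without cKO 1 (adjusted p = 0.12) and without cKO 3 (0.0892). Irf4, an early responder to cold, did not overlap but was not called, at 21.2 ± 3.92 and 14.1 ± 0.317 CPM (−0.58, adjusted p = 0.196). Ppargc1a, the cold-induced coactivator, stood at 9.32 ± 3.47 and 8.9 ± 1.19 CPM (−0.06, adjusted p = 0.938), with a sign that changed between settings.

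No general adipocyte gene was called among 21, with a median of 0.07. The closest was Aqp7, the glycerol channel, at 67.6, 66.9, 72.4 and 62.4 CPM in controls and 53, 46.4 and 61.5 CPM in cKO (−0.33, adjusted p = 0.0799). Cfd, the complement factor adipsin, stood at 7239 ± 432 and 9210 ± 847 CPM (0.35, adjusted p = 0.165), and Car3, carbonic anhydrase, at 10646 ± 665 and 11961 ± 1134 CPM (0.17, adjusted p = 0.463). DESeq2 called Aqp7 lower (adjusted p = 0.0163) and Cfd higher (adjusted p = 0.0444). Branched-chain amino acid and ketone breakdown also had no called member among 24, and a median of −0.03.

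Immune genes lay lower as groups without a called marker. All 14 macrophage markers and all 14 lymphocyte markers had log2 fold changes below 0, with medians of −0.46 and −0.64. The summed macrophage level was 838.3 to 1163 CPM across controls, against 600.6 to 853.4 CPM across cKO libraries, and the lymphocyte sum 122.2 to 267.6 CPM against 111.1 to 187.9 CPM, so that both overlapped. Interferon-stimulated genes had no call among 32, 30 values below 0 and a median of −0.35; Oas1a, an antiviral enzyme, came closest (−0.73, adjusted p = 0.108). Among called genes, Cd74, the invariant chain of antigen presentation, read 633, 579, 477 and 621 CPM in controls and 358, 422 and 339 CPM in cKO (−0.63, adjusted p = 0.0451). Leaving out any 1 of controls 1, 2 and 4 or any cKO library ended this call (adjusted p up to 0.18).

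Extracellular matrix genes had 1 call among 43 tested, Qsox1, which forms disulfide bonds, from 54.7 ± 5.13 to 76.8 ± 7.59 CPM (0.49, adjusted p = 0.00522), and a median of −0.19. Fibroblast and progenitor markers had a median of −0.24 with 1 of 12 called (Dpt), and their sums did not overlap, at 5679 to 7403 CPM across controls and 4536 to 5499 CPM across cKO libraries. Smooth muscle (−0.01), endothelium (−0.04) and heart muscle (0.01) had medians near 0 and no calls. Skeletal muscle markers summed to 20.87 to 28.03 CPM across controls, against 22.71 to 37.79 CPM across cKO libraries, with the highest sum in cKO 3, which also gave 1.76 CPM of Atp2a1, the calcium pump of fast muscle, against 0.0642 to 0.22 CPM in the other libraries. Sympathetic neuron markers were all above 0 among 11, with a median of 0.20 and no call, and Schwann cell markers had 1 call among 9, Pllp, from 5.8 ± 0.674 to 11 ± 2.43 CPM (0.92). The part of these cells in the results on adipocyte genes was not tested.

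**Figure D4:**
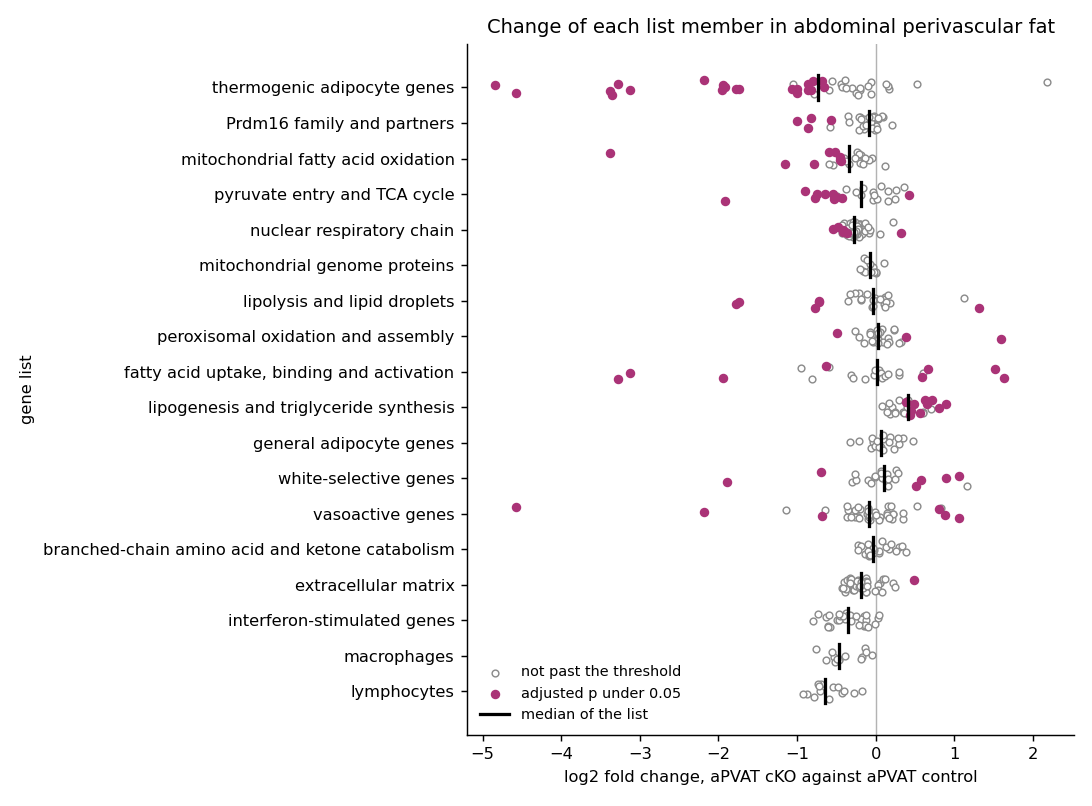
Log2 fold change of every tested member of 18 gene lists, cKO against control in aPVAT. Each point is a gene, filled where its adjusted p was under 0.05, and the black line is the median of the list. The thermogenic list reaches farthest to the left and has a median of −0.73, the lipogenesis list lies wholly to the right of 0, and the macrophage and lymphocyte lists lie to the left with no filled point.

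The change in abdominal fat was set against that in thoracic fat by an interaction test, which called 154 genes (0.784%), with 1738 at an unadjusted p under 0.05. Of these, 43 were also called in aPVAT. On the log2 scale the change was larger in aPVAT for 17 genes, of which 16 had a lower level in aPVAT cKO, and larger in tPVAT for 137. Of the 17, 15 were called in aPVAT itself: Ucp1, Cidea, Cox7a1, Cpt1b, Fabp3, Fabp3-ps1, Slc27a2, Otop1, Acot11, Pdk4 and Cpn2, and, chosen for naming after their values were seen, Tmem45b, Cyp27a1, Plet1os and C030037D09Rik. The first 11 of these thus had the larger log2 fall in the abdominal depot. All but 1 are counted in the thermogenic list, but that list was drawn up with earlier results of these data known. Their membership is therefore no separate evidence.

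Ucp1 stood at 6257 CPM in tPVAT controls and at 4059 CPM in tPVAT cKO (log2 fold change −0.62, adjusted p = 0.508), a difference from aPVAT of −4.22 (SE 0.849, adjusted p = 0.0256). The Ucp1 interaction was −6.32 without aPVAT cKO 3, −5.01 with voom and −3.57 without control 1 and cKO 4. It was lost without aPVAT control 3 (adjusted p = 0.0555) and without aPVAT cKO 1 (adjusted p = 0.0581). Cidea went from 1513 to 1329 CPM in tPVAT (−0.19), and its difference between depots was −1.55 (SE 0.178, adjusted p = 0.000303). Fabp3 read 0.37 in tPVAT against −3.28 in aPVAT, a difference of −3.65 (adjusted p = 0.000852), and the Fabp3 interaction was −4.44 without aPVAT cKO 3. Cox7a1 (−2.83), Cpt1b (−2.88) and Slc27a2 (−2.60) differed to a like degree, and all 5 of these calls held in every alternative run.

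Several genes that rose in both depots rose less in aPVAT on the log2 scale. Control levels differed between the depots, so differences in CPM can rank otherwise. Agt had the smallest interaction p but for B430119L08Rik, a gene without a name: 1.31 to 57.6 CPM in tPVAT (5.44) against 48.9 to 102 CPM in aPVAT (1.07), a difference of −4.38 (SE 0.253, adjusted p = 1.45e-07). The tPVAT cKO level thus lay near that of aPVAT controls. Aldh3b2 went from 16.5 to 166 CPM in tPVAT and from 38.6 to 92.4 CPM in aPVAT (−2.07, adjusted p = 7.1e-06), and Retn from 75.0 to 299.97 CPM and from 492 to 735 CPM (−1.42, adjusted p = 0.000395). Reep6 (−1.36), Aldh3b3 (−1.54), Psat1 (−1.07), Ccnd2 (−1.09), Apoc4 (−3.73) and Gpat3 (−1.05) had the same direction. Scd1 (−0.32, adjusted p = 0.697), Me1 (−0.24, adjusted p = 0.871) and Acaa1b (−0.37, adjusted p = 0.613) were not called, nor was Prdm16 (0.51, adjusted p = 0.154). Mreg, Adgrg2 and Pde1b changed with an adjusted p under the threshold in tPVAT alone, and their differences were −2.62, −1.26 and −1.47. Pm20d1 was the exception among the named falls, lower in both depots and by more in tPVAT (difference 0.96, adjusted p = 0.00706).

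**Figure D5:**
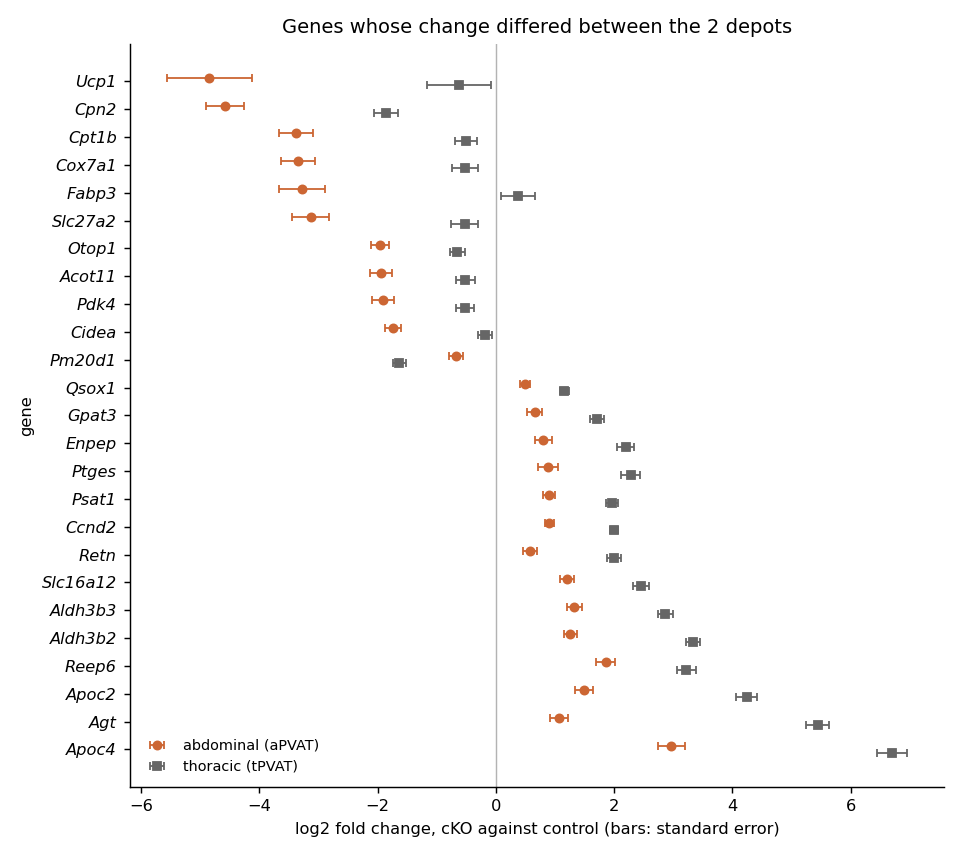
Log2 fold change of cKO against control in abdominal fat (orange circles) and thoracic fat (grey squares) for 25 genes whose change differed between depots at an adjusted p under 0.05, with standard errors as bars. The upper 10 genes, Ucp1 to Cidea, lie farther to the left in abdominal fat, and the genes from Qsox1 to Apoc4 lie farther to the right in thoracic fat.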

How the data were processed

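Per the labels' protocols, frozen tissue was extracted with TRIzol and RNeasy Micro columns, and poly(A) RNA was made into stranded libraries. The authors deposited 1 table of raw counts for 43352 Ensembl genes and 15 libraries. Per the submitters' processing notes the build was mm10, and Salmon, Subread and DESeq2 1.42.1 are named without a role. Which tool counted, with which annotation and strand setting, is not given in the sources used here, so reads of overlapping genes, and of near copies, may be shared between them.

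Columns were matched to samples by the library names. GENCODE M21 (GRCm38) held 42468 identifiers (98.0%). Genes were filtered with filterByExpr (minimum count 10), which kept 19645 genes with 99.98% of the counts. A quasi-likelihood model in edgeR 4.0.16 (R 4.3.3, TMM scaling, a mean per group of depot and genotype, common biological coefficient of variation 0.142) was fitted to all 15 libraries. F tests gave the aPVAT effect and its difference from the tPVAT effect (interaction, aPVAT minus tPVAT). P-values were adjusted by Benjamini and Hochberg over all genes, and the scripts were tested on simulated data. Library totals range from 37.76 M to 68.74 M, so low-count genes are the least precise. No 2 libraries looked alike within counting noise (chi-square per degree of freedom within aPVAT groups at least 25.03).

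The comparison, gene lists and rules were chosen with earlier results of these data known, and no list is independent support for a direction. Named are Prdm16, the 15 largest called rises and falls without overlap (mean log2 CPM of at least 1, without predicted genes), each list's called members where 10 or fewer and otherwise up to 6 of its members, related pairs, the 10 smallest interaction p, and the 12 called genes highest per kb in controls, 149 in all. List members named beyond these, such as Dio2, Fgf21, Letmd1, Fasn, Acly, Lep and Cd36, were chosen after their values were seen. Alternatives were DESeq2 1.42.0, RLE scaling, no filter, a minimum count of 50, voom of limma 3.58.1 with sample weights, a replicate block, the 7 aPVAT libraries alone, and leaving out libraries. The values of 1 gene of the pyruvate and TCA list are not reported here.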

Additional observations from a re-analysis of the deposited data

Results flagged for a closer look

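Of 149 genes examined, 4 had 1 control library far from the other 3 by Dixon's ratio, where chance flags about 1 group in 20. These were Aldh3b3 (lowest in control 4, 1.56 CPM), Ppara (highest in control 3, 28.7 CPM), Dgat1 (highest in control 3, 195.0 CPM) and Atp5g3 (lowest in control 2, 172.0 CPM). The cKO group, of 3 libraries, was not examined this way.

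The change differed between the depots, by the interaction test of edgeR, for 32 of the named genes. Values are aPVAT minus tPVAT log2 fold changes. Genes that fell in aPVAT and changed less in tPVAT were Ucp1 (−4.22), Cox7a1 (−2.83), Fabp3 (−3.65), Fabp3-ps1 (−3.66), Slc27a2 (−2.6), Otop1 (−1.3), Acot11 (−1.43), Pdk4 (−1.39), Cidea (−1.55), Cpn2 (−2.72) and Cpt1b (−2.88). Genes that rose in aPVAT and had the larger rise in tPVAT were Reep6 (−1.36), Aldh3b3 (−1.54), Aldh3b2 (−2.07), Slc16a12 (−1.25), Psat1 (−1.07), Agt (−4.38), Retn (−1.42), Gpat3 (−1.05), Enpep (−1.4), Ptges (−1.39), Qsox1 (−0.67), Apoc2 (−2.75), Ccnd2 (−1.09) and Apoc4 (−3.73). Genes not called in aPVAT were Cfd (−0.91), Alpl (−0.88), Mreg (−2.62), Adgrg2 (−1.26), Pde1b (−1.47) and Gldn (2.85). Pm20d1 fell in aPVAT and had the larger fall in tPVAT (0.96). Of the 32, 31 were called in every alternative run, the exception being Ucp1.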

How the results depend on the processing

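Of the 96 named genes called, 33 were called in all 16 alternatives and none changed sign in any, but 58 lost the call when just the 7 aPVAT libraries were fitted and 40 without cKO 1. The 301 calls (146 higher, 155 lower) became 92 (43 and 49) with the 7 aPVAT libraries and 604 (258 and 346) with DESeq2. They became 197 (109 and 88) without control 1 and cKO 4 together, an alternative chosen after seeing the data because these libraries stood apart. Leaving out 1 library gave 161 (without cKO 1) to 398 (without control 2) calls, 78 to 157 higher and 83 to 241 lower. The interaction count of 154 was 350 with DESeq2 and 114 to 189 without 1 library. Fatty acid oxidation, with 8 members lower, had 2 (7 libraries), 13 (DESeq2), 13 (replicate block), 14 (without the 2 libraries with over 1% structural RNA), 4 (without control 1 and cKO 4) and 3 to 12 (without 1 library). Lipogenesis, with 10 higher, had 0 with the 7 libraries and 4 to 10 without 1 library. The pyruvate and TCA list, with 9 lower and 1 higher, had 3 and 0 with the 7 libraries, 0 higher without control 1 and cKO 4, and 5 to 11 lower and 0 to 1 higher without 1 library. Thermogenic members lower numbered 14 to 24 over all alternatives. The replicate numbers did not pair the samples (r of same-numbered deviations −0.10, 0.17 and −0.22), and with a replicate block 312 genes were called, 253 of them shared.

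These genes, none of them called, changed sign: mt-Atp8 (0.009), Fabp4 (−0.080), Ppargc1a (0.27) and Cidec (−0.15) without the 2 libraries rich in structural RNA, Fabp4 (−0.019) and Pde1b (−0.060) without control 1 and cKO 4, and Ppargc1a with voom (0.15) and with the replicate block (0.004). Leaving out 1 library gave both signs for Atp2a1 (−1.06 to 2.51, below 0 without cKO 3), Cox4i2 (−0.28 to 0.025, above 0 without cKO 3), Cpt1a (−0.162 to 0.039, above 0 without control 3 or cKO 1), Ppargc1a (−0.199 to 0.183, above 0 without control 2, control 3 or cKO 4), Gldn (−0.023 to 0.263, below 0 without control 4), and, below 0 without cKO 4, Fabp4 (−0.039 to 0.184), Cidec (−0.056 to 0.18) and Pde1b (−0.008 to 0.168). The causes were not tested. With 37.76 M counts in cKO 4, genes under 1 CPM rest on few reads.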

Other observations

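The groups described here were chosen after their values were seen and are descriptions. Genes of sterol synthesis rose beside the lipogenic ones: of 22 tested, 7 rose, none fell and 21 had a log2 fold change above 0, with a median of 0.41. Among all genes 0.743% were called higher, 52.0% had a log2 fold change below 0 and the median was −0.01. The risers were Cyp51 (0.92), Sc5d (0.73), Tm7sf2 (0.53), Insig1 (0.52), Msmo1 (0.51), Fdps (0.50) and Nsdhl (0.42), which are enzymes of the pathway except Insig1, a sensor protein that restrains it. Their list summed to 1342 to 1417 CPM in controls and to 2094, 1787 and 1759 CPM in cKO 1, 3 and 4, so the groups did not overlap. In tPVAT 8 of the 22 rose, with a median of 0.32.

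Genes of antigen presentation by MHC class II, used by macrophages, dendritic cells and B cells, summed to 1106 to 1419 CPM across controls, against 797 to 954.5 CPM across cKO libraries. Of the 9 tested, Cd74 and H2-DMa fell (−0.63 each), and the median was −0.58. Among all genes 0.789% were called lower and 0.743% higher. The complement genes C4b (277 ± 61.5 to 152 ± 14 CPM, log2 fold change −0.86, adjusted p = 0.0061) and C4a (−0.88, adjusted p = 0.00792), near copies that may share reads, fell as well. The major urinary protein genes summed to 38.34 to 69.89 CPM across controls, against 10.44 to 19.87 CPM across cKO libraries, with 10 of 17 called lower. As near copies they may share reads, so these calls may not be separate results. Mup17, Mup14, Mup1 and Mup18 each lost the call without several single libraries, as given above. Immunoglobulin genes had 2 of 104 called higher, Ighg3 and Igkv12-89, and a median of 0.17.

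Circadian genes varied within the groups and none was called. Npas2, a partner of Clock, read 3.64, 5.12, 0.36 and 7.08 CPM in controls 1 to 4 and 6.96, 0.715 and 0.364 CPM in cKO 1, 3 and 4, and Dbp, a clock output gene, read 45.1, 64.0, 136.8 and 46.9 CPM and 32.8, 122.1 and 156.1 CPM. Control 3, cKO 3 and cKO 4 were low in the first and high in the second. Fkbp5 and Tsc22d3, which glucocorticoids induce, stood highest in control 1. Fkbp5 read 150.8 CPM there against 44.7 to 102.3 CPM in the other 6 libraries, and Tsc22d3 163.3 CPM against 58.9 to 134.6 CPM. Other genes of this kind were not surveyed.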
